A study of Mus musculus with 31 samples.

Results

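Whole spleens of mice with Vav1-Myo1f T cell lymphoma driven by CD4-CreERT2 were compared with spleens of control mice that carried the Cre driver alone. Members were chosen by the labels: the whole spleen libraries of the CD4-CreERT2 set, 3 tumors (VM231, VM236 and VM294; genotype CD4-CreERT2Vav1Myo1f fl/wt) and 3 controls (A1, A2 and A3; genotype CD4-CreERT2 (WT), status normal), which are 6 of the 31 libraries of the study. All mice are labelled C57B/6, and each library carries its own mouse name. CreERT2 is a Cre recombinase held inactive until tamoxifen reaches it, here in a construct named for Cd4, and fl/wt denotes 1 conditional and 1 wild-type allele. By their labels both groups therefore carry CD4-CreERT2 and differ in the conditional fusion allele and in tumor status, which cannot be told apart. Tamoxifen dosing, age, sex and whether a tumor arose in the mouse or was transferred are not given in the sources used here. The same set holds sorted CD4+ cells of 4 of these mice (controls A1 and A3, tumors VM231 and VM236), and a separate set holds 6 spleens of a CD4-Cre model (3 tumors of genotype CD4-CreVav1Myo1f fl/wt and 3 controls of genotype CD4-Cre(WT)).

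VAV1 relays T cell receptor signals to the actin cytoskeleton by switching on small GTPases, and MYO1F is a myosin of white blood cells. The fusion joins them and is found in human peripheral T cell lymphoma. The spleen filters blood in its red pulp, where macrophages take up old red cells and return their iron, and holds B cell follicles and T cell zones in its white pulp. In mice it can also make granulocytes, red cells and platelets, and it widens this production under stress, a state called extramedullary haematopoiesis. In a bulk spleen library, fewer cells of a type and less RNA per cell cannot be told apart.

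The 6 libraries held between 24772000 and 33034000 counts assigned to genes. Between 22574 and 24162 genes had at least 1 count, except in VM294, with 18368. VM294 stood apart in other measures too: its 20 most counted genes took 35.5% of counts against 12.01% to 19.8% in the others, and its correlation of log2 CPM with them was 0.884 to 0.917, against 0.953 to 0.996 among the others. The mean exon length of the counted genes was 2924 bases in VM294, 3933 in VM231, 3869 in VM236 and 4442 to 4686 in the controls. Actb, beta-actin, was at 722 unscaled CPM in VM294, 14547 in VM231, 2281 in VM236 and 6595 to 8086 in controls, and Gapdh at 115, 1919, 253 and 349.5 to 541. The part of RNA quality in the low values of VM294 was not tested. By counts of Xist and the Y-linked Ddx3y, the controls and VM236 were female, and VM231 and VM294 were male. A fit with sex as a term therefore compares tumor and control through VM236 alone. Marker genes of reticular and other stromal cells were near 0 in every library, with a summed level of 0.995 to 10.2 CPM over 14 genes.

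The fusion partners were read first. Gene counts hold no junction, so fused and normal transcripts, and T cells and other cells, are counted together. Levels are given as CPM, gene counts scaled by TMM to a common library size, in the order A1, A2, A3 for controls and VM231, VM236, VM294 for tumors. Myo1f (ENSMUSG00000024300, chromosome 17, 33555719 to 33607764, plus strand, GRCm38) was counted at 240.2, 196 and 199.5 CPM in controls and at 884, 390.1 and 149 CPM in tumors. VM231 and VM236 were above all controls, and VM294 was below them. For Vav1 (ENSMUSG00000034116, chromosome 17, 57279100 to 57328031, plus strand) the levels were 304, 282 and 316 against 418, 297 and 109 CPM, with the tumors on both sides of the controls. The log2 fold change was 1.16 ± 0.64 (SE, n = 3 and 3) for Myo1f (adjusted p = 0.348, edgeR) and -0.13 ± 0.53 for Vav1 (adjusted p = 0.906). Vav1 without VM294 was at 0.26.

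Over all genes, the spleens differed widely and the tumors differed among themselves. Of 16163 genes tested, 0 passed at an adjusted p under 0.05 (0%), by edgeR's quasi-likelihood test with Benjamini-Hochberg adjustment. The smallest adjusted p was 0.136. In simulated counts of this comparison, edgeR recovered 51% of 200 genes changed by a log2 of 3. At an unadjusted p under 0.05 there were 3127 genes (19.3%), of which 2034 were higher (12.6%) and 1093 lower (6.76%) in tumors. In 2534 genes (15.7%) every tumor library was above every control library, and in 3067 (19.0%) every tumor library was below. These shares are the background for the gene lists that follow, in which "above every control" and "below every control" have this meaning. The call depended on the filter on low counts, the tool and VM236: edgeR without the filter passed 258 genes as higher and 12 as lower, among them 14 of 19 neutrophil, 7 erythroid, 5 alternatively activated macrophage and 3 red pulp macrophage genes. DESeq2 passed 1359 genes as higher and 401 as lower, limma voom with weights for library quality 130 and 9, and edgeR without VM236 615 and 149, while edgeR without any other library passed 0. Of the 16163 genes of the main fit, DESeq2 passed 1151 as higher and 393 as lower, and library weights 130 and 9. For edgeR these counts were 563 and 149 without VM236, and 248 and 12 without the filter. They are the background for list members passed by those routes. No change below passed edgeR with the filter and all 6 libraries, and calls by another route are named as such.

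Across 47 lists of genes for cell types and processes, myeloid, red cell and platelet genes were at the top and B cell, naive T cell and mitochondrial genes at the bottom. The highest median log2 fold changes were 6.67 for neutrophils and their precursors, 4.44 for erythroid cells and 3.87 for megakaryocytes and platelets, and the lowest were -1.50 for B cells and -1.17 for naive and resting T cells. The median over all genes tested was -0.02. VM236 often lay nearer the controls than the other tumors did, but in the erythroid list it was the highest. Medians are over the list members that passed the filter on low counts, so genes that tumors alone hold can enter them and genes absent everywhere cannot.

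**Figure D1:**
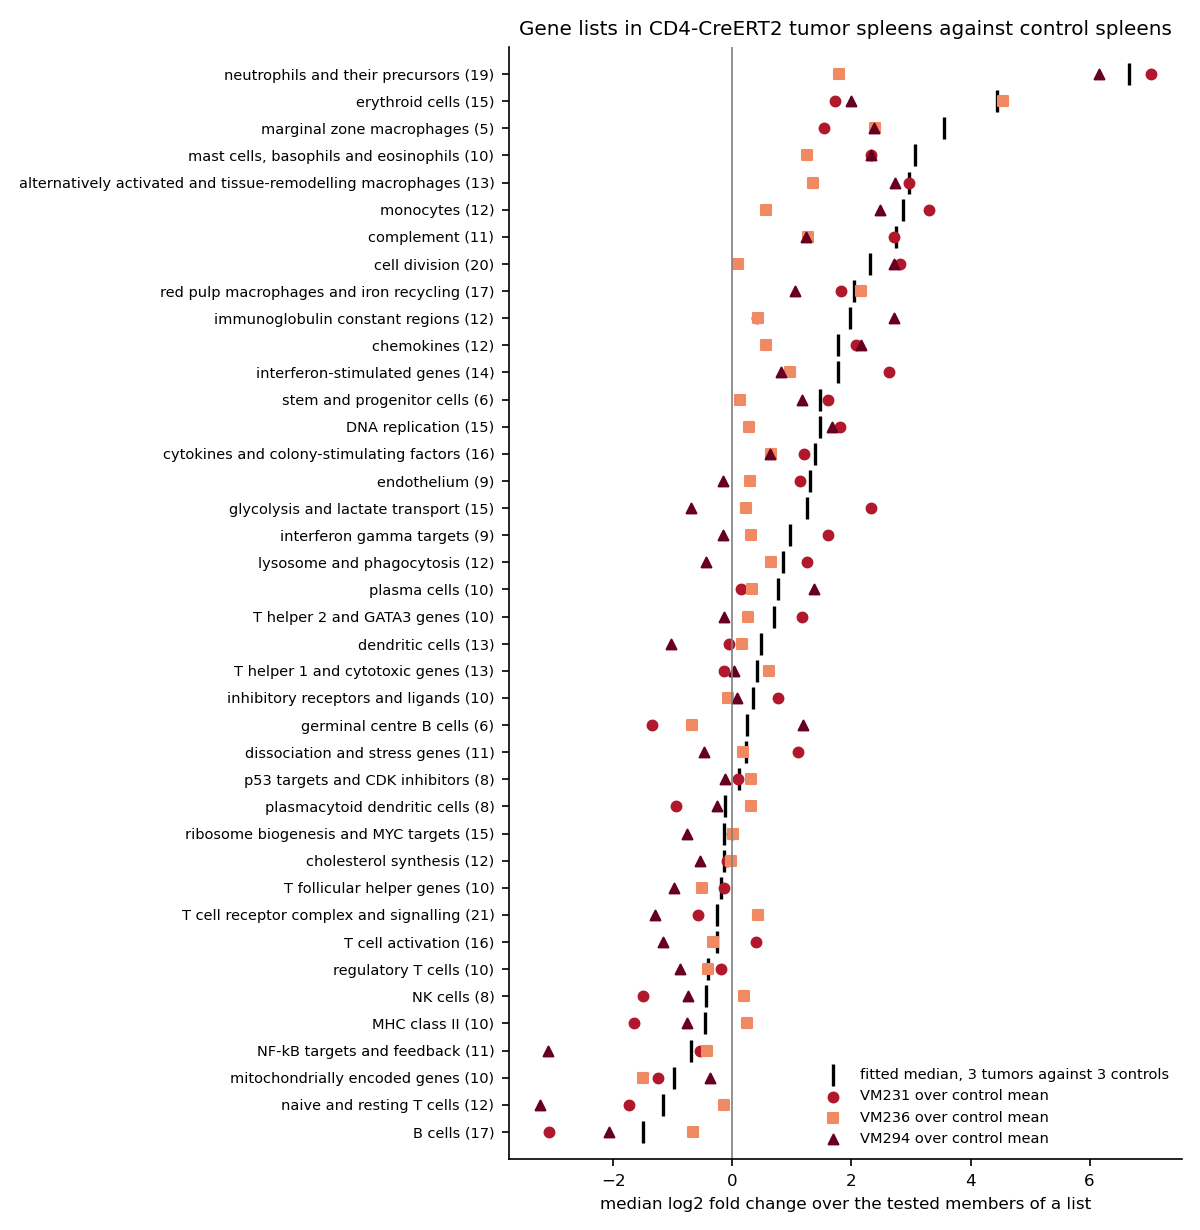
Median log2 fold change (x axis) over the tested members of 40 gene lists with at least 5 tested members (y axis, number of members in parentheses), with a vertical bar for the fitted median of 3 tumors against 3 controls and symbols for single tumor libraries over the mean of the controls, on log2(CPM + 0.5). Neutrophil genes lie at 7.04 in VM231, 1.78 in VM236 and 6.16 in VM294, and B cell genes lie at -3.08, -0.66 and -2.07.

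Neutrophil genes were the group farthest from the controls. Neutrophils pack their granules in stages, each with its own genes, so the list orders them from precursor to mature cell. All 19 listed genes were tested and had positive changes with an unadjusted p under 0.05, and 18 were above every control (background 15.7%). The exception was Csf3r, the receptor for granulocyte colony-stimulating factor, at 72.5, 62.6 and 52.99 CPM in controls and 438, 269.5 and 61.7 in tumors. Summed over the list, the level was 922, 636 and 458 CPM in controls and 107300, 2913 and 60900 CPM in tumors. These genes took 9.60% of all gene counts in VM231 and 3.74% in VM294, against 0.310% in VM236 and 0.0539% to 0.106% in controls. VM236 was thus above the controls but far below the other tumors.

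Genes of primary granules, made in promyelocytes, were among the most distant. Elane, which encodes neutrophil elastase (ENSMUSG00000020125, chromosome 10, 79886312 to 79888216, plus strand), lay at 5.45, 4.73 and 8.06 CPM in controls and 1458, 21.5 and 1698 CPM in tumors, a log2 fold change of 7.44 ± 1.55 (adjusted p = 0.138). Mpo, myeloperoxidase, stood at 17.7, 10.8 and 24.3 against 4233, 95.2 and 1381 CPM (6.76 ± 1.40). Both were above every control in each tumor, with VM236 well under VM231 and VM294. The serine proteases Prtn3 and Ctsg had changes of 7.36 ± 1.58 and 7.47 ± 1.65. Cebpe, a transcription factor needed for late granulocyte maturation, stood at 0.705, 0.124 and 0.583 CPM in controls and 91.6, 2.79 and 38.8 in tumors.

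Genes of secondary and tertiary granules, made later, had changes of like size. Ngp, neutrophilic granule protein (ENSMUSG00000032484, chromosome 9, 110419747 to 110423012, plus strand), lay at 239, 104 and 72.00 CPM in controls and at 29260, 833 and 33610 CPM in tumors (7.26 ± 1.54, adjusted p = 0.138). Ltf, the iron-binding lactoferrin, stood at 89.99, 39.4 and 37.7 against 20840, 192 and 1164 CPM (7.05 ± 1.86). In VM294 Ngp was as high as in VM231, whereas Ltf was below it. Lcn2, which binds bacterial siderophores, stood at 13.2, 11.4 and 10.2 against 5218, 15.3 and 479 CPM, so VM236 was only just above the controls. The antimicrobial peptide gene Camp and the collagenase gene Mmp8 had changes of 6.995 ± 1.48 and 6.69 ± 1.24, and the gelatinase gene Mmp9 of 4.22 ± 1.18.

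Genes of mature neutrophils, Csf3r aside, were also above the controls in each tumor. The calprotectin subunit S100a8 stood at 178, 143 and 83.5 CPM in controls and 17780, 465 and 6707 in tumors (5.95 ± 1.34), and its partner S100a9 at 152, 132 and 75.7 against 15150, 432 and 5675 CPM (5.89 ± 1.31). Cxcr2, the chemokine receptor that draws mature neutrophils out of the marrow, stood at 18.02, 21.7 and 16.4 against 435, 74.1 and 264 CPM (3.78 ± 0.69). Its change was smaller than those of the precursor genes, on a tighter spread among tumors. Of the 19 genes, 16 passed without VM236, 17 passed with DESeq2 and 2 with library weights (Mmp8 and Cxcr2). Over all 16163 genes tested, these routes passed 563, 1151 and 130 as higher. The list median was 6.61 without VM294, 6.27 with offsets for exon length and 1.88 with sex as a term, which leaves VM236 as the tumor compared.

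To show the sequence upstream of these genes, promoter windows were read from RefSeq (GRCm38.p6), 250 bases before each annotated start, written 5′ to 3′ on the gene's strand. Of the 19 genes, 17 matched the table, with 18 windows. A pair of short motifs was searched on both strands and is in capitals where found: TTGCNNAA, a C/EBP-type sequence, and GAGGAA, a PU.1-type sequence, both named for factors of granulocyte and monocyte development. Matches of one motif may overlap those of the other. TTGCNNAA was in the windows of 8 of the 17 genes and in 9.56% of all 32851 windows, and GAGGAA was in those of 11 genes and in 23.3% of all windows. A match says only that the letters are present. The Ngp window reaches past the start of the counted gene given above, so its second match lies within that gene. The windows below are of a pair of genes with 2 TTGCNNAA matches each (Ngp, chr9:110419558-110419807, plus strand; Fcnb, ficolin B, chr2:28084879-28085128, minus strand) and a pair with 2 GAGGAA matches each (Mpo, chr11:87793534-87793783, plus strand; S100a8, chr3:90668821-90669070, plus strand).
Ngp: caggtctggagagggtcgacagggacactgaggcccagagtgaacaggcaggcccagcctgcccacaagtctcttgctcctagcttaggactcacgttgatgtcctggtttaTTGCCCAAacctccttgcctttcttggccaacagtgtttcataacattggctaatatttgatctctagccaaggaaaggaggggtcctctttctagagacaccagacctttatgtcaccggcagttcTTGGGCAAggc
Fcnb: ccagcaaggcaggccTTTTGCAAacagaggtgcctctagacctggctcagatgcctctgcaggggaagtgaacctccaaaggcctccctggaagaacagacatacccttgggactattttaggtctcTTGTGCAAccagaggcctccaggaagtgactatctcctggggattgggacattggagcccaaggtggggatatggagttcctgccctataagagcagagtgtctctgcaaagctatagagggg
Mpo: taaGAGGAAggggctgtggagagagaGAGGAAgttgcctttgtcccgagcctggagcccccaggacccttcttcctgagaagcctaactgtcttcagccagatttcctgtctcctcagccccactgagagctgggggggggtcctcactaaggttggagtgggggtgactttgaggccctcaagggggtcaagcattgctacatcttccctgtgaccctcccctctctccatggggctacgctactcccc
S100a8: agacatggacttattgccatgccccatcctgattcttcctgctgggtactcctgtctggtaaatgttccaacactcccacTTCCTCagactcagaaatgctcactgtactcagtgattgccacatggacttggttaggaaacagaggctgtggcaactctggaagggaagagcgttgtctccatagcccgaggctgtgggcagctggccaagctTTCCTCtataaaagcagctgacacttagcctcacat

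**Figure D2:**
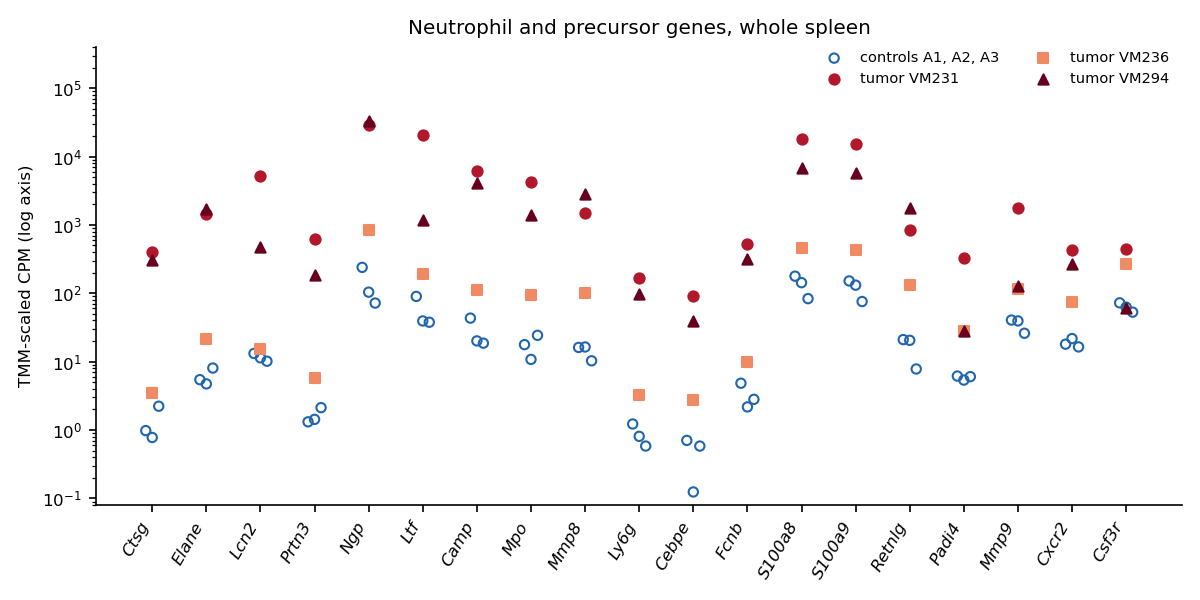
TMM-scaled CPM on a log axis (y axis) of the 19 neutrophil and precursor genes (x axis, ordered by fitted change) in each whole spleen library, with open circles for controls, and a filled circle, square and triangle for VM231, VM236 and VM294. In 18 genes every tumor lies above every control, and in Csf3r VM294, at 61.7 CPM, lies among the controls at 52.99 to 72.5.

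Monocyte genes followed the same order of libraries, VM231 and VM294 high and VM236 near the controls. All 12 were positive, with a median of 2.87, and 8 were above every control. The tumor medians were 3.31, 0.56 and 2.48. Lyz2, lysozyme of macrophages and granulocytes, stood at 1290, 1069 and 1204 CPM in controls and 13140, 2977 and 12620 in tumors (3.01 ± 0.73, adjusted p = 0.148). Ccr2, the receptor that lets inflammatory monocytes leave the marrow, stood at 81.9, 74.4 and 57.9 against 335, 100.4 and 388 CPM (1.94 ± 0.56). Ly6c2, a surface marker of those monocytes, stood at 124, 105 and 122 against 2107, 108 and 577 CPM, with VM236 inside the control range, and Itgam, the integrin CD11b, at 17.99, 18.4 and 16.9 against 331, 17.6 and 163 CPM. With sex as a term these changes were -0.11 for Ly6c2 and -0.015 for Itgam. F13a1, a coagulation factor gene of monocytes, had a change of 3.16 ± 0.70, and Cd14, a lipopolysaccharide co-receptor, of 3.27 ± 0.52 with levels of 55.5, 44.9 and 39.2 CPM in tumors against 2.88, 3.51 and 8.06. Plac8, the other gene of high level, stood at 194, 199 and 202 against 580.2, 227 and 328 CPM (0.93 ± 0.45).

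Macrophage genes of the red pulp had another order of libraries, with VM236 among the highest. Of 17 genes 16 were positive, 9 were above every control and 13 had an unadjusted p under 0.05, all higher, with a median of 2.04 and tumor medians of 1.83, 2.16 and 1.05. Slc40a1, ferroportin, which exports iron from macrophages, stood at 58.5, 40.8 and 54.7 CPM in controls and 319, 879.9 and 123 in tumors (3.10 ± 0.74, adjusted p = 0.148). Spic, the transcription factor that sets up red pulp macrophages, stood at 18.7, 16.4 and 17.8 against 35.6, 80.5 and 124 CPM (2.18 ± 0.51). VM236 led for Slc40a1 and VM294 for Spic. The adhesion molecule gene Vcam1 had a change of 2.21 ± 0.58, the dead-cell receptor gene Mertk of 2.58 ± 0.55 and the scavenger protein gene Cd5l of 3.03 ± 0.66. Csf1r, the receptor for macrophage colony-stimulating factor, stood at 132, 123 and 175 against 431, 278 and 58.9 CPM, with VM294 below the controls. Without VM236, 0 of the 17 passed, and DESeq2 passed 10.

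Genes of marginal zone and of alternatively activated macrophages were higher too. Of 5 marginal zone genes 4 were above every control, with a median of 3.55, at low levels: the scavenger receptor gene Marco stood at 0.245, 0.373 and 0.172 CPM in controls and 1.08, 8.34 and 7.87 in tumors, and Timd4, a receptor for phosphatidylserine, at 0.153, 0.498 and 0.412 against 1.98, 5.84 and 3.93 CPM. Of 14 genes of alternatively activated and tissue-remodelling macrophages, 13 were tested and 9 were above every control, with a median of 2.96. Chil3, a chitinase-like secreted protein also made by granulocyte precursors, stood at 116, 56.9 and 69.05 against 15780, 264 and 3960 CPM (6.37 ± 1.48). Arg1, arginase 1, stood at 1.07, 0.342 and 1.10 against 77.5, 0.399 and 140.5 CPM, so VM236 lay within the controls, and with sex as a term its change was -1.06. The mannose receptor gene Mrc1 was at 29.9, 40.5 and 53.9 CPM in tumors against 4.38, 2.89 and 8.68, Retnla had a change of 5.55 ± 1.15 and the galectin gene Lgals3 of 2.96 ± 0.65. Apoe, which carries lipids, stood at 299, 269 and 366 against 233, 1130 and 848 CPM, with VM231 below the controls. Among them, 6 of the 13 passed without VM236 and 10 with DESeq2.

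Red cell genes were highest in VM236, the tumor with the fewest neutrophil transcripts. Of 20 erythroid genes 15 were tested, all 15 were positive and 9 were above every control, with a median of 4.44 and tumor medians of 1.72, 4.55 and 1.99. The summed level over the list was 85, 74 and 74 CPM in controls and 436, 1457 and 246 in tumors. Hba-a1, an alpha globin gene, stood at 5.42, 2.64 and 6.96 CPM in controls and 109.9, 592 and 114 in tumors (5.76 ± 0.93, adjusted p = 0.138), and Hbb-bs, a beta globin gene, at 2.79, 1.96 and 4.46 against 94.3, 215 and 23.01 CPM (5.17 ± 0.90). Globin genes have near-identical neighbours among which reads can be split, so their single values are uncertain. Alas2, the first enzyme of haem synthesis in red cell precursors, stood at 0.0613, 0.435 and 0.858 against 9.23, 30.6 and 6.88 CPM (5.10 ± 1.07). The regulator Klf1 stood at 0.184, 0.467 and 0.240 against 0.673, 28.02 and 0 CPM and Car1, a carbonic anhydrase, at 0.153, 0 and 0.377 against 1.57, 50.1 and 0.0655 CPM, so both were high in VM236 and near the controls elsewhere. DESeq2 passed 9 of the list and library weights 7. Without VM236, 6 passed.

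Some platelet and most basophil genes were above the controls, at lower levels. Of 9 megakaryocyte and platelet genes 4 were tested and 2 were above every control. The platelet chemokine gene Pf4 stood at 0.460, 0.280 and 0.514 CPM in controls and 3.74, 19.7 and 6.82 in tumors (4.58 ± 0.80), and Ppbp at 0.460, 0.435 and 0.309 against 4.30, 37.7 and 4.26 CPM (5.25 ± 1.08). VM236 led for both, as it did for Itga2b, the platelet integrin, at 8.78, 38.9 and 0.197 CPM against 1.29, 2.58 and 1.51, with VM294 below the controls. Of 10 genes of mast cells, basophils and eosinophils, 6 were above every control, with a median of 3.06. Prss34, a basophil protease, stood at 1.90, 5.94 and 4.84 against 187, 77.1 and 786 CPM (6.37 ± 1.09, adjusted p = 0.138), with VM294 the highest, and Mcpt8, another basophil protease, at 1.93, 4.45 and 2.78 against 71.3, 13.8 and 29.8 CPM. Ccr3, a receptor of eosinophils and basophils, stood at 3.62, 3.92 and 6.11 against 10.2, 68.99 and 65.9 CPM.

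B cell genes were lower in every tumor, most in VM231 and VM294. Of 17 genes 16 were negative and 14 were below every control (background 19.0%), 9 with an unadjusted p under 0.05 (background 6.76%), with a median of -1.50. The summed level was 11630, 11920 and 11810 CPM in controls and 1565, 7680 and 3356 in tumors. Cr2, the complement receptor of follicular and marginal zone B cells (ENSMUSG00000026616, chromosome 1, 195136811 to 195176716, minus strand), lay at 1026, 877 and 869.9 CPM in controls and 29.7, 203 and 32.1 in tumors, a log2 fold change of -3.39 ± 0.86 (adjusted p = 0.158). Fcer2a, the low-affinity IgE receptor CD23, stood at 508, 492 and 392 against 18.8, 163 and 8.39 CPM (-2.87 ± 1.07). Ms4a1, which encodes CD20, stood at 1328, 1388 and 1359 against 164, 852 and 372 CPM. VM236 was closest to the controls for each.

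Not all B cell genes had changes of this size. Cd79a and Cd79b, the signalling chains of the B cell receptor, had changes of -0.86 ± 0.72 and -0.91 ± 0.71. In VM236 Cd79a was at 1653 CPM against 1863, 1897 and 1842 in controls. Pax5, which maintains B cell identity, had a change of -1.95 ± 0.56, and Spib, a transcription factor of B cells, of -2.84 ± 0.72. Ebf1 stood at 144, 168 and 154 against 14.9, 178 and 81.4 CPM, with VM236 above the controls. Vpreb3 stood at 45.01, 47.5 and 35.3 against 3.96, 31.6 and 129 CPM, with VM294 above and VM231 and VM236 below. Without VM294 its change was -1.26. Of the list, 5 passed as lower without VM236 and 4 with DESeq2. Among 4 marginal zone B cell genes, the Notch target Dtx1 had a change of -2.27 ± 0.78 and the tetraspanin gene Cd9, which other cells also use, of 2.15 ± 0.45.

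Immunoglobulin transcripts did not follow the B cell genes. The constant regions took 6.42%, 3.81% and 6.45% of gene counts in controls and 4.59%, 6.56% and 18.1% in tumors. Among heavy chain constant counts, the IgM gene Ighm took 84.6%, 78.2% and 85.6% in controls and 58.4%, 75.8% and 15.8% in tumors. The IgG1 gene Ighg1 took 0.966%, 0.505% and 0.612% in controls and 15.9%, 3.23% and 62.4% in tumors, and the IgE gene Ighe 0.00753%, 0.0104% and 0.00707% against 0.226%, 0.0124% and 5.47%. For both switched classes every tumor was above every control. Ighg1 stood at 314, 84.8 and 214 CPM in controls and 4848, 888 and 59480 in tumors (6.73 ± 1.75, adjusted p = 0.162) and Ighe at 2.45, 1.74 and 2.47 against 68.7, 3.42 and 5216 CPM (9.63 ± 2.68). The share of the IgA gene Igha among heavy chain constant counts was also above every control in each tumor, by little in VM231. It was 2.73%, 10.25% and 9.04% in tumors against 2.68%, 1.498% and 0.639% in controls. The IgG2c gene Ighg2c was high in VM231 alone, at 14.4%, 3.62% and 3.85% against 1.56%, 3.82% and 4.21%. Ighd, the class of naive B cells, stood at 1862, 1754 and 1739 against 243, 1173 and 92.7 CPM, below every control.

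Plasma cell genes were split in VM294, with some far above the controls and others within or below them. Of 10 genes 7 were positive and 3 were above every control, with tumor medians of 0.14, 0.33 and 1.37, and the list median without VM294 was 0.09. Jchain, which links IgM and IgA chains, stood at 4395, 1880 and 3574 CPM in controls and 1913, 5727 and 65050 in tumors, and Creld2, a chaperone of the secretory pathway, at 129, 113 and 170.2 against 223, 221 and 2972 CPM. Xbp1, the regulator of antibody secretion, stood at 499, 328 and 482 against 794, 662 and 786 CPM, above every control by less. Sdc1, the plasma cell surface protein syndecan-1, stood at 67.96, 29.1 and 51.1 against 37.6, 74.1 and 22.3 CPM, with VM294 below the controls. Prdm1, the regulator of plasma cell identity, was at 28.8 CPM in VM294 and Derl3 at 34.5, both within the controls. The kappa constant gene Igkc stood at 17700, 10250 and 16720 against 18490, 27080 and 154200 CPM (2.16 ± 1.005), and the median of the 12 constant region genes was 1.97 with and 0.55 without VM294.

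**Figure D3:**
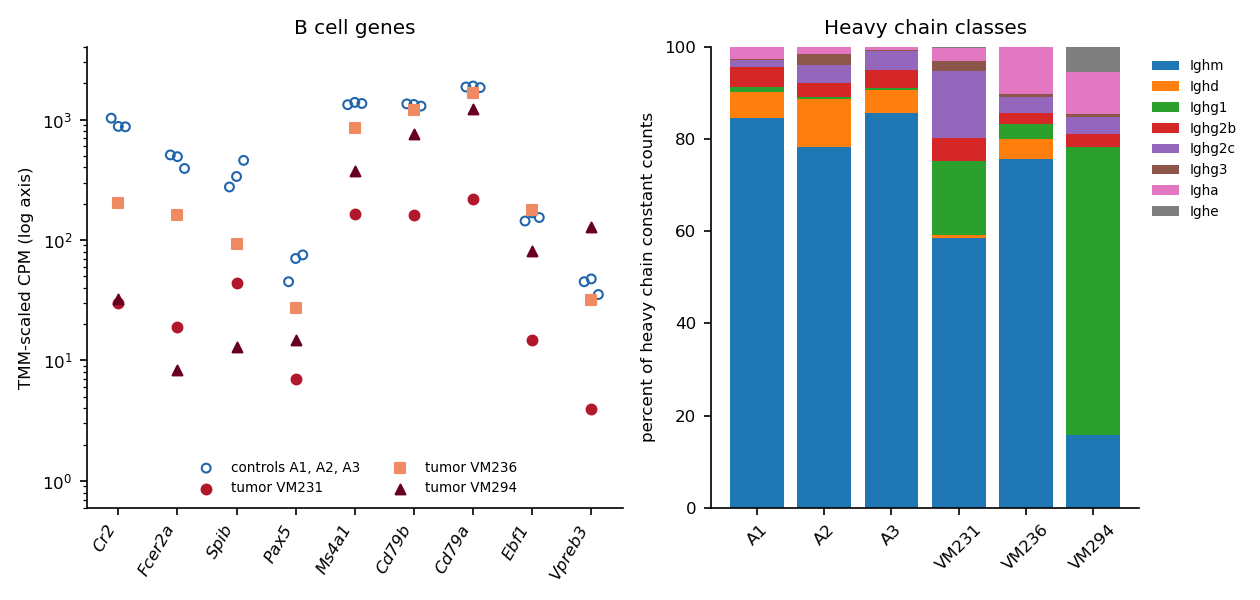
Left, TMM-scaled CPM on a log axis of 9 of the 17 B cell genes in each library (open circles for controls, filled symbols for tumors). Right, stacked bars of the percent of heavy chain constant counts in each class, by library; the bars show Ighm at 58.4% in VM231, 75.8% in VM236 and 15.8% in VM294 against 78.2% to 85.6% in controls.

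T cell genes, the lineage of the lymphoma, were not raised in whole spleen as a group. The 21 genes of the T cell receptor complex and its signalling had a median of -0.26 (0.09 without VM294), with 1 above every control, the adaptor gene Lcp2 (1.19 ± 0.35), and 2 below, of which the signalling gene Rhoh had a change of -1.49 ± 0.42. They took 0.417%, 0.412% and 0.335% of gene counts in controls and 0.225%, 0.508% and 0.105% in tumors. Cd4 stood at 102, 91.3 and 123 CPM in controls and 117, 58.5 and 9.96 in tumors (-0.77 ± 0.76, adjusted p = 0.596), with VM294 far below the rest. Lck, the kinase bound to CD4 and CD8, stood at 523, 451 and 347 against 264, 879.9 and 299 CPM (0.13 ± 0.57), and its change was -0.56 without VM236. Cd8b1 stood at 157, 138 and 88.3 against 31.5, 193 and 31.1 CPM, low in VM231 and VM294. VM236 was thus above the controls for the receptor list as a whole, although its Cd4 level was below them.

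Genes of naive and resting T cells were lower. Of 12 genes 11 were negative and 5 were below every control, with a median of -1.17 and tumor medians of -1.75, -0.14 and -3.24. Foxp1, which keeps T cells quiescent, stood at 311, 378 and 401 CPM in controls and 83.8, 198 and 63.5 in tumors (-1.66 ± 0.52). Klf2 and Bach2, regulators of quiescence, had changes of -1.66 ± 0.68 and -2.33 ± 0.83. B cells also express several of these genes, and their marker levels were lower in the same libraries, a part in the result that was not tested. Gata3, the master regulator of T helper 2 cells, stood at 22.7, 21.6 and 20.8 against 22.01, 19.9 and 2.69 CPM (-0.54 ± 0.71). Of 15 T helper 2 and GATA3 genes 10 were tested and 2 were above every control, Il4, at 0.582, 0.933 and 0.789 CPM in controls and 4.71, 1.22 and 2.49 in tumors (1.86 ± 0.64), and the chemokine receptor gene Ccr8, at 4.17, 4.76 and 5.83 against 28.4, 6.18 and 5.96 CPM. Of 10 T follicular helper genes 1 was above every control and 2 were below. Cxcr5, which guides cells to B cell follicles and is also a B cell gene, stood at 333, 302 and 343 against 42.9, 209 and 12.8 CPM, below every control. Of 13 T helper 1 and cytotoxic genes 1 was above every control, the granule gene Nkg7, at 302, 238 and 232 against 355, 555 and 594 CPM, and 0 were below, with a median of 0.41. In VM294 other members were far below the controls: Prf1, perforin, was at 1.31 CPM against 36.4 to 48.1, and the regulator Tbx21 at 0.131 against 38.6 to 52.4. Of 16 T cell activation genes 2 were above every control and 2 below, with a median of -0.26, and the costimulator gene Tnfrsf4 was above at 74.2, 56.7 and 58.6 against 116, 101 and 298 CPM. In the T helper 2, T follicular helper, T helper 1 and activation lists, these counts were near the shares over all genes or under them. Those shares were 15.7% above and 19.0% below.

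Each T cell carries 1 rearranged beta chain of the T cell receptor as a rule, so a clone that expands raises the share of 1 Trbv gene. In VM231, Trbv20 took 49.1% of 2098 Trbv counts (exact 95% interval 47.0% to 51.3%, counting error only), against 2.19% to 3.05% in controls. In VM294, Trbv13-1 took 22.3% of 350 counts (18.03% to 27.01%), and in VM236, Trbv13-2 took 15.4% of 6005 counts (14.5% to 16.3%). The most counted gene took 11.1%, 13.2% and 12.5% in controls, Trbv13-2 in A1 and A2 and Trbv2 in A3. Its mean share was 28.9% ± 17.9 in tumors and 12.3% ± 1.05 in controls (SD, n = 3 each), a difference of 16.7 percentage points, higher in 3 of 3 tumors. The exact two-sided permutation test gave p = 0.1, the smallest that 3 against 3 allows. The effective number of Trbv genes, the inverse Simpson index, was 8.77 in tumors and 14.5 in controls (exact permutation p = 0.1). Without VM231 the difference was 6.56 percentage points. In the sorted CD4+ cells of VM231, Trbv20 took 66.4% (65.7% to 67.1%) of 16887 Trbv counts, and in those of VM236 Trbv13-2 took 15.5%. The most counted gene took 12.2% in control CD4+ cells of A1 and 14.6% in those of A3. The effective number of Trbv genes in CD4+ cells of VM236, 13.1, lay between the 12.6 of A3 and the 14.5 of A1.

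V genes of immunoglobulins were looked at after their values were seen and have no test. The most counted heavy chain gene took 14.5%, 7.61% and 11.0% of Ighv counts in controls and 8.53%, 48.8% and 26.0% in tumors. In VM236 this was Ighv14-2, which also took 27.5% in the sorted CD4+ cells of that mouse, and in VM294 it was Ighv4-1. The kappa gene Igkv1-135 led in both VM236 (31.7%) and VM294 (27.1%), but a single kappa gene, Igkv5-39, took 36.1%, 13.2% and 31.9% in controls. VM231, the tumor with the largest Trbv share, had its Ighv and Igkv counts spread most evenly among the tumors, with a leading kappa gene at 8.33%. Counts of neighbouring V genes can be split among near-identical copies.

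**Figure D4:**
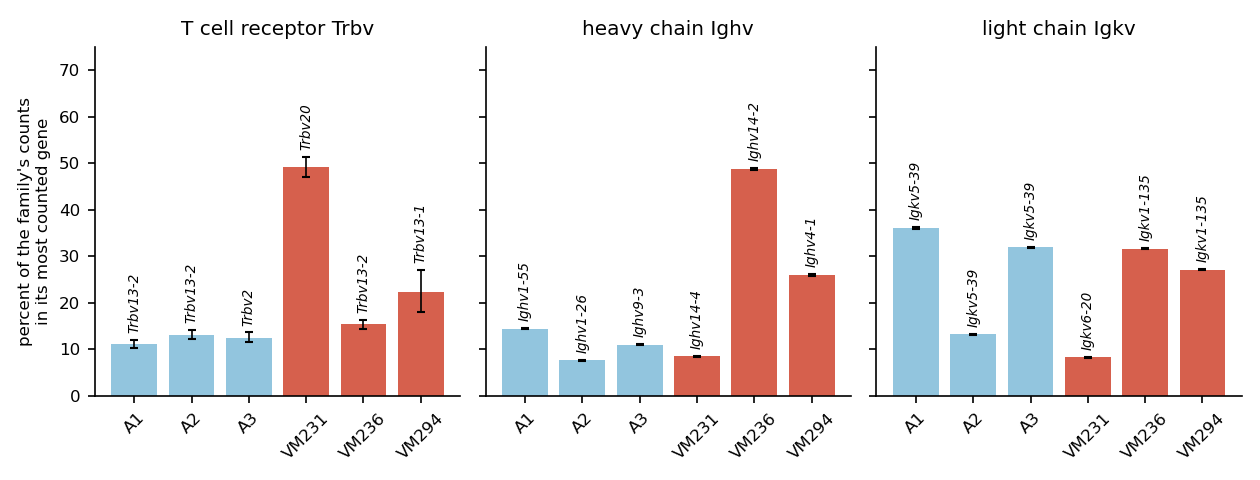
Percent of a family's counts (y axis) taken by its most counted gene, named above each bar, in each whole spleen library (x axis; blue for controls, red for tumors), for Trbv, Ighv and Igkv; whiskers are exact 95% binomial intervals. Trbv20 stands at 49.1% in VM231 and Ighv14-2 at 48.8% in VM236, whereas Igkv5-39 leads in all 3 controls.

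Genes of dividing cells were high in VM231 and VM294 and at control level in VM236. All 20 cell division genes were positive, 19 with an unadjusted p under 0.05 (background 12.6%), and 10 were above every control, with a median of 2.31 and tumor medians of 2.82, 0.10 and 2.71. Mki67, present in cycling cells, stood at 25.1, 26.5 and 36.3 CPM in controls and 149, 12.8 and 217 in tumors (2.11 ± 0.88, adjusted p = 0.253), and Top2a, a topoisomerase of dividing cells, at 43.2, 39.6 and 58.3 against 362, 31.1 and 174 CPM. For both, VM236 was below the controls, and with sex as a term their changes were -1.19 and -0.60. Ccnb1, cyclin B1, stood at 37.5, 30.2 and 34.3 against 251, 39.5 and 416 CPM (2.79 ± 0.79), and Birc5, survivin, at 17.04, 16.9 and 21.8 against 130.0, 25.1 and 352 CPM (3.19 ± 0.88). Without VM236, 18 of the 20 passed, and DESeq2 passed 14. Of 15 DNA replication genes all were positive and 8 were above every control, with a median of 1.48, among them Tyms, thymidylate synthase (2.90 ± 0.80), Rrm1, a subunit of ribonucleotide reductase (1.13 ± 0.44), and the helicase subunit gene Mcm6 (0.71 ± 0.38). Neutrophil precursor genes were high in the same libraries, and their part in this result was not tested.

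Glycolysis genes split the tumors. Of 15 genes 14 were positive and 3 were above every control, with a median of 1.247 and tumor medians of 2.33, 0.23 and -0.70. Pkm, pyruvate kinase, stood at 572, 481 and 591 CPM in controls and 3235, 928 and 337 in tumors, high in VM231 and below the controls in VM294. The median was 0.07 without VM231. Cdkn1a, an inhibitor of cyclin-dependent kinases, stood at 3.98, 3.73 and 5.08 against 40.4, 14.4 and 76.6 CPM (3.36 ± 0.65), the 1 gene of 8 tested p53 targets and inhibitors that was above every control. Transcripts encoded in mitochondria were lower, most clearly in VM231 and VM236: all 10 were negative and 7 were below every control, with a median of -0.98, and mt-Nd1 stood at 2296, 2145 and 2353 against 848, 713 and 1604 CPM. They took 1.19% to 1.39% of gene counts in controls and 0.437%, 0.454% and 0.771% in tumors, but after TMM scaling their summed level in VM294, 12580 CPM, was above the 10320 to 11840 CPM of controls.

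Chemokine and cytokine genes were higher in the median. Of 16 chemokine genes 12 were tested and 7 were above every control, with a median of 1.78. Ccl8, which attracts monocytes, stood at 0.0306, 0.218 and 0.309 CPM in controls and 31.98, 3.25 and 122 in tumors, and Ccl6 at 106, 93.1 and 78.2 against 174, 299 and 1515 CPM (2.84 ± 0.85), with VM294 the highest for both. Ccl9 stood at 16.98, 21.02 and 20.9 against 56.1, 20.7 and 97.5 CPM, with VM236 among the controls. Of 18 cytokine and colony-stimulating factor genes 16 were tested and 8 were above every control, with a median of 1.38 (0.56 without VM231). Il1a, interleukin 1 alpha, stood at 0.551, 0.187 and 0.172 against 6.17, 5.15 and 5.51 CPM (4.18 ± 0.65), and Il1rn, the natural antagonist of its receptor, at 5.30, 6.75 and 4.36 against 90.2, 21.4 and 50.8 CPM (3.31 ± 0.60). Il1b stood at 31.4, 32.1 and 34.3 against 39.6, 52.2 and 43.5 CPM, a change of 0.47 ± 0.32, above every control by less. Tnfsf13b, the B cell survival factor BAFF, stood at 3.55, 2.43 and 2.67 against 25.9, 7.49 and 38.7 CPM (3.05 ± 0.66).

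Complement and interferon-stimulated genes were higher in the median, with different leaders, and lysosomal genes were mixed. Of 12 complement genes 11 were tested, all were positive and 6 were above every control, with a median of 2.74. C1qb and C1qc, subunits of the first complement component made by macrophages, had changes of 3.12 ± 0.70 and 3.29 ± 0.69, and properdin, Cfp, stood at 98.1, 100.3 and 105 against 322, 581 and 99.4 CPM. C3 stood at 10.2, 10.8 and 15.98 against 932, 10.9 and 186 CPM, so VM236 was within the controls, and its change was -0.17 with sex as a term. All 14 interferon-stimulated genes were positive and 10 were above every control, with a median of 1.77 and tumor medians of 2.64, 0.97 and 0.81. Ifit1, which binds viral RNA, stood at 12.5, 8.18 and 12.3 against 93.6, 28.8 and 36.97 CPM (2.27 ± 0.55), Rsad2, viperin, had a change of 2.83 ± 0.74, and Bst2, tetherin, of 1.21 ± 0.43. Irf7 stood at 71.3, 66.4 and 79.6 against 318, 88.8 and 7.73 CPM, and its change was -0.58 without VM231. Of 12 genes of lysosome and phagocytosis all were positive and 5 were above every control, with a median of 0.85 (0.25 without VM231) and tumor medians of 1.249, 0.65 and -0.44. The lysosomal protease gene Ctsb stood at 634, 518 and 634 against 1388, 2926 and 1835 CPM and the macrophage gene Cd68 at 55.4, 53.1 and 49.8 against 138, 228 and 687 CPM, above every control in all tumors.

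Antigen presentation and NF-kB genes were mixed or lower. Of 10 MHC class II genes 3 were below every control, with a median of -0.47. Ciita, the master regulator of the class, stood at 434, 409 and 396 CPM in controls and 129.8, 199 and 47.3 in tumors (-1.72 ± 0.56), whereas H2-Ab1 stood at 7501, 6168 and 5957 against 2162, 13250 and 11970 CPM, low in VM231 alone. Of 11 NF-kB targets and feedback genes 5 were below every control, with a median of -0.69 and -3.10 in VM294, where Nfkb2 stood at 7.14 CPM against 154, 171 and 212 in controls. Of 14 dendritic cell genes 13 were tested, 2 were above every control (background 15.7%) and 1 below, with tumor medians of -0.06, 0.16 and -1.03. Among them Cadm1, an adhesion molecule of cross-presenting dendritic cells, was above every control at 34.1, 56.3 and 37.4 CPM against 10.6, 11.5 and 14.5.

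The tumor effect in whole spleen was then set against that in sorted CD4+ cells of the same model, 2 controls and 2 tumors. No difference of the effects passed: 0 of 18529 genes were higher or lower in adjusted terms (0%), by edgeR, and by DESeq2 also 0, with 856 at an unadjusted p under 0.05. In simulated counts of this design, edgeR recovered 1.5% of 200 genes changed by a log2 of 3. The contrast could thus hardly pass a gene, and 0 passing does not show that the effects are alike. By edgeR, 451 genes (2.43%) had an unadjusted p under 0.05. The signed difference, spleen minus sorted cells, was positive in 229 (1.24%) and negative in 222 (1.20%). With the mouse as replicate block, 0 passed. Cd9 stood at 89.97, 89.1 and 75.02 CPM in control spleens and 349, 229 and 516 in tumor spleens, and at 147 and 143 CPM in control and 76.8 and 116 in tumor CD4+ cells, a difference of the effects of 2.70 ± 0.58 (adjusted p = 0.977). The sorted cells also held B cell genes, at 0.460% and 0.430% of gene counts in controls and 0.0743% and 0.276% in tumors. Immunoglobulin constant regions took 7.795% and 6.549% of gene counts there in controls and 4.145% and 1.942% in tumors. In whole spleens of the same control mice, A1 and A3, they took 6.415% and 6.451%. The median change of neutrophil genes was 5.67 in sorted cells, where they took 0.639% of counts in VM231 and 0.0191% in VM236 against 0.0108% and 0.00799% in controls. The red pulp macrophage list took 0.136% and 0.768% there in tumors against 0.0365% and 0.0815%. Neutrophil and macrophage lists were thus higher in tumors in both fractions. The fractions come from the same mice.

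The CD4-Cre model gave another spleen comparison, with its own controls. The signed difference between the tumor effects, CD4-CreERT2 minus CD4-Cre, passed as positive for 8 of 17784 genes (0.0450%) and as negative for 0 (0%), by edgeR. A positive difference can come from a fall in CD4-Cre, so it does not mean a larger change in CD4-CreERT2. At an unadjusted p under 0.05 there were 3341 genes (18.8%), 2011 positive (11.3%) and 1330 negative (7.48%). In simulated counts of this contrast, edgeR recovered 32% of 200 genes changed by a log2 of 3. Of the 8, Lyz1, a lysozyme gene, Il1b, interleukin 1 beta, and Dusp1, a phosphatase of MAP kinases, were named by rule. Steap4, Clec1b, Gm6517, Arg2 and Ifit1bl2 were chosen after their values were seen. Lyz1 stood at 13.8, 12.98 and 12.8 CPM in CD4-CreERT2 controls and 121, 43.1 and 141 in tumors, against 145, 78.1 and 71.3 in CD4-Cre controls and 14.7, 15.8 and 23.7 in tumors (difference 5.39 ± 0.65, adjusted p = 0.0140). Il1b stood at 32.2, 32.8 and 35.3 CPM in controls and 40.3, 54.8 and 49.5 in tumors of CD4-CreERT2, and at 340.1, 384 and 261 in controls and 16.4, 41.8 and 15.6 in tumors of CD4-Cre (difference 4.27 ± 0.56, adjusted p = 0.0150). The change of Il1b was thus 0.47 ± 0.32 in CD4-CreERT2 and -3.74 ± 0.42 in CD4-Cre. Dusp1 stood at 78.5, 53.6 and 86.2 against 197, 329 and 348 CPM, and at 368, 367 and 243 against 27.9, 80.3 and 76.8 CPM (difference 4.40 ± 0.62, adjusted p = 0.0274). The list of dissociation and stress genes summed to 1174 to 2340 CPM in CD4-Cre controls and 532.1 to 1111 in their tumors. In CD4-CreERT2 it summed to 717.7 to 1277 CPM in controls and 704.5 to 1685 in tumors. The part of this list in the Dusp1 difference was not tested.

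Beside these differences, the controls of both models were far apart in myeloid genes. The neutrophil list summed to 945, 651 and 471 CPM in CD4-CreERT2 controls and to 7209, 21410 and 46150 in CD4-Cre controls. Tumors summed to 109200, 3060 and 69320 in CD4-CreERT2 and to 252.5, 354.3 and 71980 in CD4-Cre. The effect of CD4-Cre tumors on that list was -0.04 in the median, against 6.67. The sets were deposited separately, in tables of different layout, so model and set cannot be told apart. A CD4-Cre control shares its mouse number with a tumor library of that set, under another genotype label, and without it 9 genes passed. Without any 1 of the CD4-CreERT2 controls 0 passed, without VM231 1380, without VM236 76 and without VM294 42. Without CD4-Cre tumors VM388, VM58 or VM98 the counts were 0, 1 and 648, and without controls VM211 or VM216 6 and 1.

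**Figure D5:**
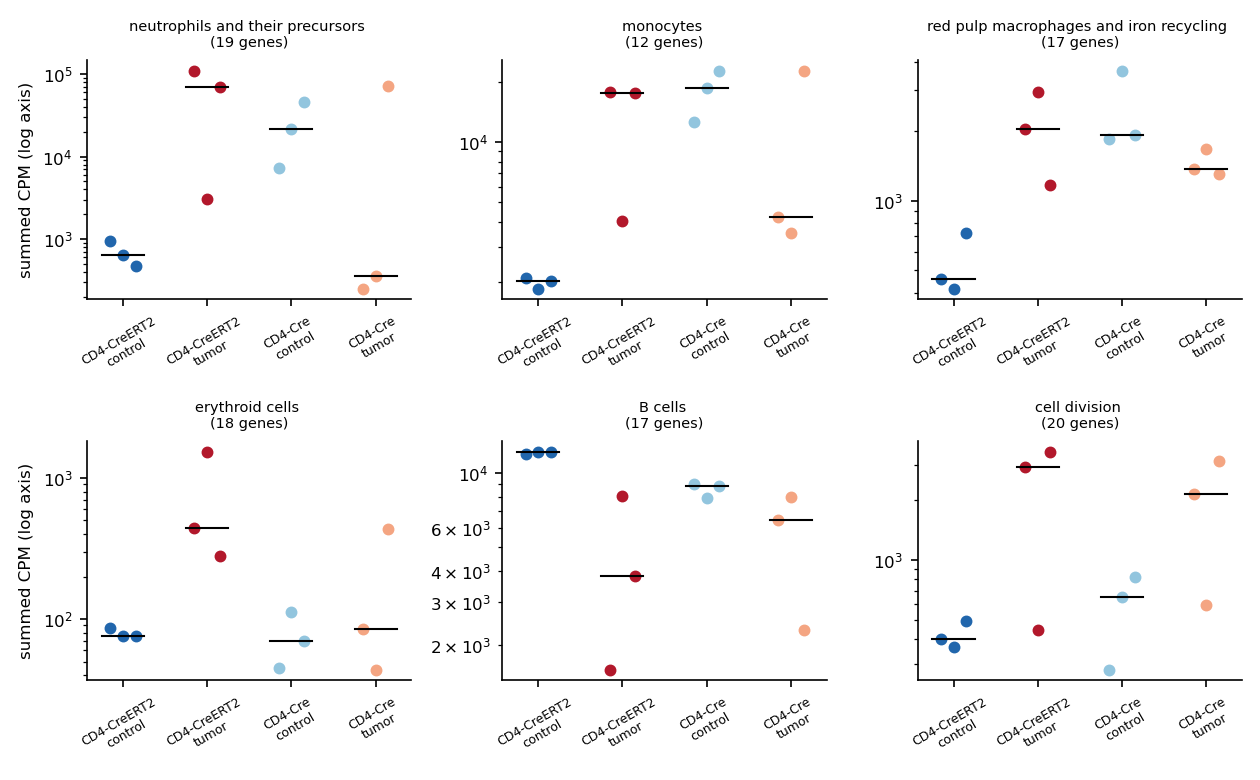
Summed TMM-scaled CPM on log axes (y axis) of 6 gene lists in each whole spleen library of 4 groups (x axis), with 1 point per library and a bar at the group's median. CD4-CreERT2 controls lie at 471 to 945 CPM for neutrophil genes and CD4-Cre controls at 7209 to 46150.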

How the data were processed

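PolyA RNA was amplified as full-length cDNA, tagmented with Nextera XT and run on a HiSeq instrument for 31 mouse libraries, per the labels' protocols. The authors deposited unscaled counts for each gene, whole numbers throughout, with alignment by HISAT2 2.1.0 and counting by HTSeq 0.5.4 on mm10 and GRCm38, per the submitters' processing notes. The annotation release, the strand of the reads and pooling of animals are not given in the sources used here, so p-values reflect the variation among libraries only. Counts without molecular identifiers are not independent molecules.

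The tables list 49315 genes, of which 48970 carry a symbol, and 48211 symbols are in both kinds of table. Low counts were removed by filterByExpr, libraries scaled by TMM, and genes tested, two-sided, by the quasi-likelihood test of edgeR 4.0.16 in R 4.3.3 with Benjamini-Hochberg adjustment over all genes tested. Log2 fold changes are tumor minus control, with the standard error (SE). CPM have their SD between libraries where printed. Log2 CPM of single libraries over the control mean used a pseudocount of 0.5. Correlations between spleen libraries used the log2 of unscaled CPM with a constant added, and those of paired mice a prior count of 2. Differences between tumor effects were interaction contrasts over 10 libraries (sorted CD4+ cells) and 12 libraries (CD4-Cre). Alternatives were RLE scaling, scaling without immunoglobulin, receptor, haemoglobin and mitochondrial genes, no filter, DESeq2 1.42.0, sex as a term, all 10 libraries of the set in the fit, and each library left out. Weights for library quality (limma 3.58.1) and offsets for exon length were added after seeing the data. Scripts were tested on simulated data.

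The members, the 47 lists with 565 genes, the tests and the alternatives were chosen with earlier results of these data known. The rule named Vav1, Myo1f, Cd4, Gata3 and Mki67, up to 4 members of a list that passed or else its 2 members of highest level, and the passing genes with the greatest changes (12 in each direction, 6 for interactions) among those with a mean log2 CPM of at least 3, leaving out gene models. No gene passed in the spleen comparison, so other list members are named for their roles, chosen after their values were seen. Mouse names pair spleen and sorted cells of the same animals. The correlations of their deviations from group means over genes were 0.192, 0.279, 0.158 and 0.440. Intervals are exact Clopper-Pearson 95% intervals from scipy 1.17.1. Of 1 list member no row was found in the tables. A few list members are counted in their lists but not reported here by name.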

Additional observations from a re-analysis of the deposited data

Results flagged for a closer look

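For 8 genes the tumor effect in whole spleen differed between CD4-CreERT2 and CD4-Cre by the test of the difference itself (edgeR interaction, log2, SE). The differences, CD4-CreERT2 minus CD4-Cre, were 9.30 ± 1.06 for Steap4, a metalloreductase gene, 8.50 ± 1.05 for the gene model Gm6517, 6.39 ± 0.82 for Arg2, mitochondrial arginase, 6.32 ± 0.81 for Ifit1bl2, 6.31 ± 0.77 for Clec1b, a C-type lectin receptor, 5.39 ± 0.65 for Lyz1, 4.40 ± 0.62 for Dusp1 and 4.27 ± 0.56 for Il1b, with adjusted p from 0.0140 to 0.0274. Over the alternatives, their adjusted p ran from 4.9e-18 to 0.180. In each of the 8 genes every CD4-CreERT2 tumor was above every control of its set and every CD4-Cre tumor was below every control of its set. Steap4 stood at 1.73, 2.29 and 1.66 CPM in CD4-CreERT2 controls and 20.2, 17.6 and 70.7 in tumors, and at 15.4, 53.5 and 12.7 in CD4-Cre controls and 0.655, 0.586 and 1.23 in tumors. Arg2 stood at 3.39, 3.66 and 2.33 against 24.7, 12.1 and 26.4 CPM, and at 16.2, 30.7 and 12.1 against 0.759, 1.17 and 2.79 CPM. Clec1b stood at 0.754, 1.05 and 1.62 against 10.6, 23.9 and 34.9 CPM, and at 7.28, 11.6 and 5.68 against 2.83, 1.80 and 1.62 CPM. Ifit1bl2 stood at 2.23, 1.495 and 1.27 against 33.04, 7.60 and 16.9 CPM, and at 5.16 to 12.2 CPM in CD4-Cre controls against 1.42 at most in tumors. Gm6517 stood at 1.13, 0.954 and 1.31 against 1.67, 1.82 and 4.998 CPM, and at 3.88, 3.71 and 2.35 against 0.0345, 0.0225 and 0 CPM, so its levels were low throughout.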

How the results depend on the processing

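The count of genes passing in the spleen comparison was 0 with all 6 libraries. It was 270 without the filter, 1760 with DESeq2, 139 with library weights and 1 with all 10 libraries of the set in the fit, and it was 0 with RLE scaling, with the reduced scaling set, with sex as a term (1103 genes at an unadjusted p under 0.05) and with exon length offsets (3107). With 1 library left out it ran from 0 to 764. The count for the difference between both models was 8, with 148 without the filter, 1007 with DESeq2 and 0 to 1380 with 1 library left out. For the difference between spleen and sorted CD4+ cells 0 passed under every alternative run, and with the mouse as replicate block 0 passed with 572 at an unadjusted p under 0.05. No call changed with the replicate block, for a contrast that recovered 1.5% of changed genes in simulated counts. The difference in the leading Trbv share ran from 6.56 to 23.5 percentage points with 1 library left out. Of 120 genes followed, 108 kept the sign of their change under the alternatives run. With sex as a term, changes turned to -1.19 for Mki67, -0.11 for Ly6c2, -0.015 for Itgam, -1.06 for Arg1, 0.20 for Ebf1, -0.43 for Vpreb3, 0.60 for Cd8b1, -0.60 for Top2a and -0.17 for C3. With library weights Vav1 was at 0.0057 and Vpreb3 at -1.24, and with exon length offsets Vpreb3 was at -0.49. With 1 library left out, changes ran from -0.57 to 0.26 for Vav1, from -1.26 to 0.90 for Vpreb3, from -0.56 to 0.42 for Lck and from -0.58 to 1.503 for Irf7. The cause was not tested. List medians were followed under RLE scaling and with 1 library left out. They moved by more than the SD of the 3 tumor medians in 14 of 329 values, 13 of them without a tumor library. That SD is wide where the tumors differ, so a median can shift far and count as kept. Sex as a term was not among these settings. It took the median from 6.67 to 1.88 for neutrophil, 2.31 to 0.10 for cell division and 2.87 to 0.57 for monocyte genes. For erythroid genes it went from 4.44 to 5.33. The low Trbv count of VM294 limits its shares.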

Other observations

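A pair of genes were near on or off between the groups, in spleen and in sorted CD4+ cells alike. They were chosen after their values were seen. Jhy (chromosome 9, 40894849 to 40964118, GRCm38) had 259, 304 and 215 counts in control spleens and 0 in each tumor spleen, and 94 and 72 counts in control CD4+ cells against 1 and 0 in tumor CD4+ cells. Against a floor of 3 counts per library, its level was at least 42.0-fold lower in tumor spleens (adjusted p = 0.138, edgeR). Ifi44l, an interferon-stimulated gene (chromosome 3, 151758737 to 151762892), had 1, 2 and 0 counts in control spleens and 688, 618 and 283 in tumor spleens, and 1 and 0 against 957 and 1360 counts in CD4+ cells (adjusted p = 0.136 in spleen, the smallest of all genes tested). VM236 was as far from the controls as the other tumors in both genes, unlike in the neutrophil and cell division lists. The labels give C57B/6 for all mice and no substrain, so for these genes a difference of genetic background between the groups and tumor status cannot be told apart.

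The change in spleen moved with the exon length of genes. In 5 classes of the genes tested, equal in size and ordered from the shortest to the longest, the median log2 fold change was 0.44, 0.23, -0.04, -0.20 and -0.37. The share of genes above every control was 23.4% in the shortest and 8.10% in the longest class, and the share below every control 11.7% and 31.0%. With offsets for exon length the medians lay between -0.01 and 0.11.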
